A study of Mus musculus with 2 samples.

Results

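Immediate early genes are transcribed within minutes of a stimulus, without new protein synthesis, and many of their products are themselves regulators of transcription. The FOS and JUN families form the dimeric transcription factor AP-1 through their basic leucine zipper (bZIP), and ATF3, the small MAF proteins and C/EBP proteins are bZIP factors of the same kind. Others in the group feed back on the response, as the DUSP phosphatases do by removing phosphate from MAP kinases and as ZFP36 proteins do by binding AU-rich mRNAs and speeding their decay. In the kidney these genes are known to respond to ischemia, and they are also known to respond to enzymatic digestion of tissue, which precedes every scRNAseq library.

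The 36 genes described here were taken by symbol from the 32285 genes of the count tables and fall into 9 roles: the FOS family, the JUN family, other bZIP factors, EGR zinc finger factors, NR4A nuclear receptors, KLF factors, dual specificity phosphatases, mRNA decay and antiproliferative genes, and others. Each symbol matched 1 gene. The study compared 2 kidneys, 1 ischemic and 1 control, from male wildtype C57BL/6J mice aged 19 weeks. Whether both came from the same animal is not certain, since the series' design text speaks of a mouse, the paper of mice, and the labels give no animal. The left kidney underwent 27 min of unilateral ischemia and 24 h of reperfusion and is called ischemia. The contralateral, uninjured kidney was harvested at the same time and is called control. It comes from an operated animal with an injured other kidney, not from an unoperated mouse. Both kidneys were digested with liberase, hyaluronidase and DNase for 20 min at 37 °C and then with trypsin for 10 min. Each kidney gave 1 library, so the kidneys could not be compared by a test, and ratios are given with 95% intervals in parentheses, which cover counting error only and not the variation between kidneys.

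The libraries held 15110 control and 15257 ischemia barcodes, of which 12586 and 13116 cells passed the filters, with 124679362 and 128733541 UMIs and medians of 3839 and 2138.5 UMIs per cell. Of the barcode sequences, 88 occurred in both libraries. Of 18 clusters, 15 were named from marker genes, and 10 cell types had at least 50 cells in each library: proximal tubule (PT), thin limb, thick ascending limb (TAL), distal convoluted and connecting tubule (DCT-CNT), collecting duct principal cells (CD-PC), podocytes, endothelial cells (EC), pericytes with smooth muscle cells, macrophages, and T with NK cells. The names stand for cells that resemble these types by their markers. Levels are in CPM (counts per 1000000), which scale the UMIs of a gene to all UMIs of the cells concerned. The CD-PC cluster also held markers of its neighbours, with the DCT-CNT list at 41064 CPM in its control cells against 12979.9 CPM in the cluster called DCT-CNT, the intercalated cell list at 2629.7 CPM, and Trpv5 and Aqp6 among its 10 leading genes. CD-PC and DCT-CNT are therefore clusters and not clean segments. PT was the largest named type with 3908 control and 2823 ischemia cells, against 510 and 499 in TAL and 360 and 279 in DCT-CNT. Unnamed cluster 0 held more, with 4567 control and 5859 ischemia cells, or 36.3% and 44.7% of the kept cells. It was outside the comparisons of cell types. In PT the injury gene Havcr1 had 7.15 CPM in control against 418 CPM in ischemia, the highest ischemia level of the 10 types. It was higher in ischemia in the other types too, for instance at 1.6 against 105 CPM in EC. In T and NK cells it was at 6.24 against 115 CPM. The rise of Havcr1 thus matched the ischemia label of the library and was not confined to the cells named PT. Whether the Havcr1 RNA counted in the other types came from those cells was not tested. Mitochondrial genes took 25.2% of control and 20.1% of ischemia UMIs. The members were left out of the genes used for clustering.

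The members are short genes. In GENCODE M21 on GRCm38, the median member spanned 5292 bp with a median of 3 exons, and 26 of 36 (72.2%) spanned under 10000 bp. Among 14741 protein-coding genes with at least 50 UMIs the median was 24842 bp and 9 exons, and 23.9% spanned under 10000 bp. A single exon was annotated for 8 members (22.2%), Jun, Junb, Jund, Cebpb, Cebpd, Ier2, Ier5 and Rhob, against 2.72% of the protein-coding genes. Fos lies at chr12:85473890-85477273 (+) with 4 exons, and Jun at chr4:95049034-95052222 (−).

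Promoter stretches are shown for 5 members that stand for the contrasts in the data, the AP-1 genes Fos and Jun, the early bZIP gene Atf3, the phosphatase gene Dusp1 and the zinc finger gene Klf6. The sequences are RefSeq promoters on GRCm38.p6, read 5′ to 3′ on the strand of the gene. Each starts 150 bases before the transcription start, and each ends 1 base before it, other than that of Dusp1, which was cut to 133 bases. Capitals mark matches to TGACG, the core of a cAMP response element (CRE), to the longer TGACNTCA, or to TATAAA.
Fos promoter, chr12:85473740-85473889 (+): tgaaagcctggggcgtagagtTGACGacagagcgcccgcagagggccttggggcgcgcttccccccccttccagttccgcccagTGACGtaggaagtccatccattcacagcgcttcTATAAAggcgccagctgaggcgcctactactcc
Jun promoter, chr4:95052223-95052372 (−): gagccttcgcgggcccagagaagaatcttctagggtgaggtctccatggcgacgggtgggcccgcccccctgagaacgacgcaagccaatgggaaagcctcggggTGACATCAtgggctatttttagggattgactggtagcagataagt
Atf3 promoter, chr1:191183334-191183483 (−): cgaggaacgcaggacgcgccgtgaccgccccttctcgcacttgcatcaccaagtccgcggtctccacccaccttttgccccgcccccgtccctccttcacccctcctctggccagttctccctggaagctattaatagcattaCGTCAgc
Dusp1 promoter, chr17:26508490-26508622 (−): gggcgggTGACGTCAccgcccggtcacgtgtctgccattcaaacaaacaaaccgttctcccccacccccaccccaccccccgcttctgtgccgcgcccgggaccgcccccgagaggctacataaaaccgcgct
Klf6 promoter, chr13:5861339-5861488 (+): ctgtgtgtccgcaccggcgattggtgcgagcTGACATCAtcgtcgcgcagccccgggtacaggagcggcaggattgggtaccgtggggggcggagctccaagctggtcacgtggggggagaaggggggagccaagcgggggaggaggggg

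The stretches of Fos and Jun hold 0 bases of annotated exons, those of Atf3 and Klf6 hold 7 each and that of Dusp1 holds 30. Those of Atf3 and Dusp1 lie inside longer annotated gene models, at a downstream start. RefSeq promoters were at hand for 29 of the 36 members, as 38 promoters. In the 250 bases before the start, on both strands, TGACG occurred in 24 of the 38 (63.2%), against 17.8% of 32851 mouse promoters. These belong to 18 of the 29 genes, since some genes have several promoters, which can overlap. The motif TGACNTCA, which contains TGACG where N is G, occurred in 6 of 38 (15.8%) against 7.49%, in Btg2, Dusp1, Jun, Klf6 and Maff. The AP-1 site TGANTCA occurred in 2 of 38 (5.26%) against 6.75%, in Csrnp1 and Zfp36l1. The CArG box, bound by serum response factor, occurred in 6 of 38 (15.8%) against 1.47%, in Egr2, Dusp5 and Zfp36. By gene this is 3 of 29. Several of the 6 are overlapping promoters of Egr2 that hold the same site, so the 15.8% counts that site more than once. TATAAA, searched on the strand of the gene, occurred in 3 of 38 (7.89%) against 7.59%, in Fos, Btg1 and Zfp36l1. A match describes the letters in this window and does not show that a factor binds there.

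In the control kidney, among the 10 types, the members were lowest in PT and highest in thin limb cells. Over all 36 members together, PT held 756 CPM in control against 1793 CPM in ischemia, a ratio of 2.37 (2.35–2.39). Thin limb cells held 16973 CPM in control against 15349 CPM in ischemia, a ratio of 0.904 (0.891–0.917). PT had the lowest control level of 22 members and thin limb cells the highest of 18, among the 10 types. Fos, the FOS subunit of AP-1, was at 73.6 CPM (71.6–75.6) in control PT and next at 377 CPM (366–389) in TAL and 390.1 CPM (325–465) in T and NK cells, whose intervals overlapped. It was at 638 CPM (619–658) in DCT-CNT, then at 1077 CPM (1058–1096) in CD-PC and 1098 CPM (1050.1–1147) in macrophages, which again overlapped. Podocytes, EC and pericytes with smooth muscle cells followed at 1471, 1519.9 and 1624 CPM, with overlapping intervals for neighbours, and thin limb cells stood above all of them at 2603 CPM (2532–2676). In ischemia the order had the same ends, with Fos at 147 CPM in PT and 2308 CPM in thin limb cells. Atf3, an early stress-induced bZIP factor, ran in control from 11.3 CPM (10.5–12.1) in PT to 1421 CPM (1369–1476) in thin limb cells. Levels in the small types rested on few cells. The 5 cells with the most Fos UMIs held 50.3% of the Fos UMIs of control podocytes and 35% of those of control thin limb cells, against 6.91% in PT.

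Members at least 2-fold higher in ischemia were counted among those with at least 50 UMIs over both libraries in a type. All 36 passed this in at least 1 type and 16 passed it in all 10. Since a member can pass through the library where it is high, these counts describe the members that passed and not all 36.

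In PT, 20 of 31 members were at least 2-fold higher in ischemia and 0 were 2-fold lower, where 6.9% and 3.85% of all 13541 genes tested were. The median log2 ratio was 1.25 over these members and 0.11 over all genes. In TAL the count was 18 of 32 higher and 0 lower, against 7.82% and 7.64% of all genes, with medians of 1.21 and 0.10. DCT-CNT had 9 of 30 higher and 0 lower, against 6.74% and 6.15% of all genes, with medians of 0.48 and 0.07. In DCT-CNT cells of at most 25% mitochondrial UMIs, 7 of 28 members were higher and 5 lower, against 5.99% and 9.44% of all genes, the members' median was -0.25 and their summed ratio 0.92 (0.90–0.94) in place of 1.31 (1.29–1.33). In TAL cells under the same limit, 9 of 30 members were higher and 0 lower, against 5.47% and 8.39% of all genes, with a members' median of 0.252. Their summed ratio was 1.12 (1.096–1.145) in place of 1.82 (1.79–1.85). In such PT cells 16 of 31 were higher and 0 lower, against 5.29% and 4.83% of all genes, with a members' summed ratio of 1.89 (1.87–1.91). So over all cells, the tubule segments that held most of the high ratios were PT and TAL. At the 25% limit, TAL was closer to DCT-CNT than to PT in its count and summed ratio.

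The CD-PC cluster, thin limb cells and the cells outside the tubule had smaller counts than PT and TAL. CD-PC had 6 of 34 higher and 0 lower, against 5.75% and 3.89% of all genes, with medians of 0.21 and 0.02. In CD-PC cells of at most 25% mitochondrial UMIs, 2 of 34 were higher, near the 4.99% of all genes, the median was -0.05 and the summed ratio 0.915 (0.906–0.925) in place of 1.11 (1.1–1.12). Macrophages had 9 of 34 higher and 0 lower, against 5.72% and 4.92%, and their medians of 0.17 for members and 0.11 for all genes lay close together. EC had 4 of 34 higher and 0 lower, against 1.93% and 3.34%, with medians of 0.27 and -0.01. Thin limb cells had 3 of 32 higher and 1 lower, against 3.9% and 6.48%, with medians of -0.0038 and -0.0068. In the last 3 types at most 1 member was past 2-fold upwards. Podocytes had 1 of 21 higher and 0 lower, against 0.858% and 2.6%, and pericytes with smooth muscle cells had 1 of 27 higher and 0 lower, against 3.28% and 2.48%. The 1 in pericytes with smooth muscle cells was Ier5, at 2.06, which was at 0.764 when the libraries were clustered without integration (Ier5 ratio, pericyte/SMC), and the count was 0 under 3 of the alternatives. T and NK cells had 0 of 22 higher and 2 lower, against 2.71% and 2.26%, and a members' median of -0.25 beside 0.12 for all genes.

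**Figure D1:**
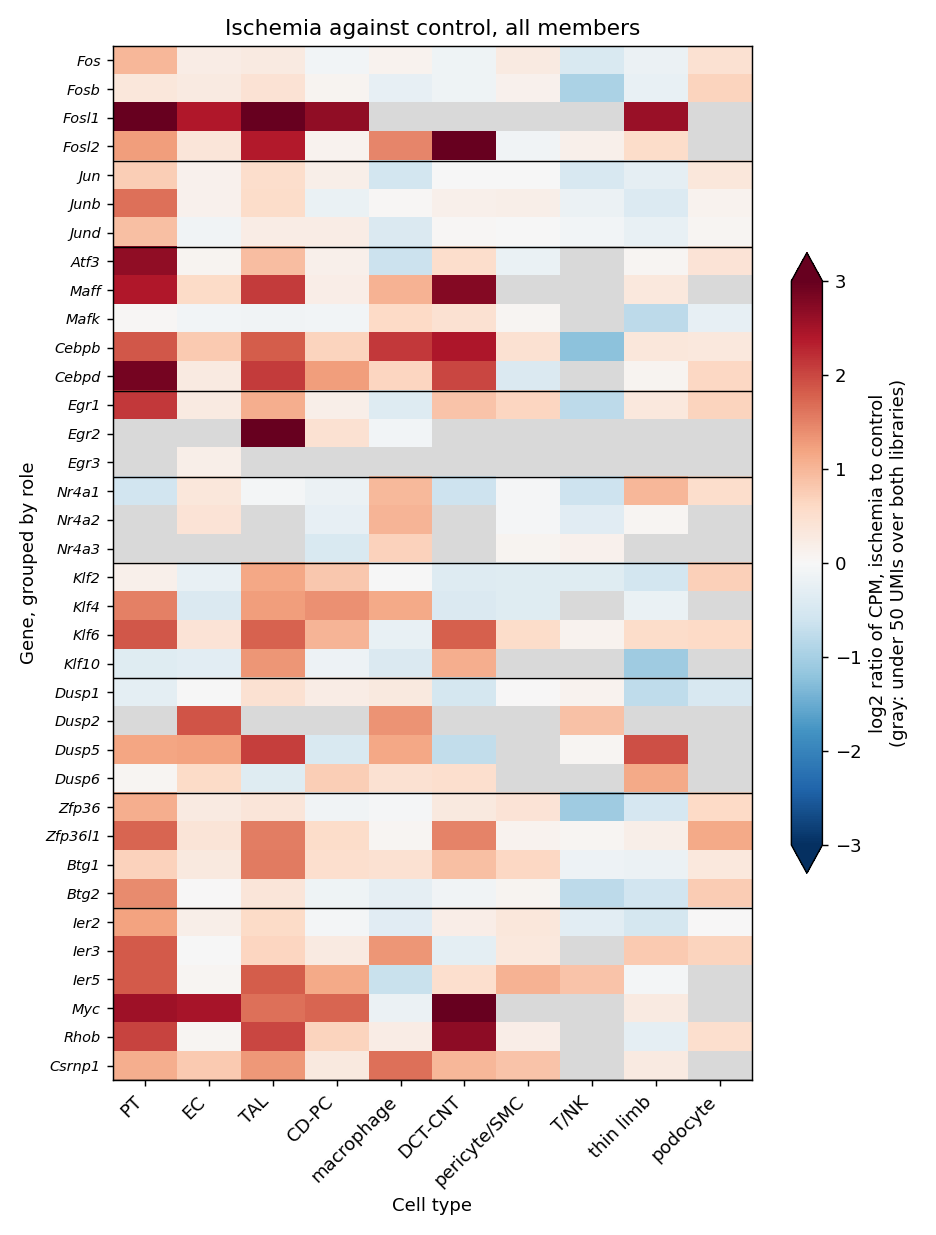
Log2 ratio of ischemia to control CPM for each member and each of the 10 cell types, with members ordered by role and gray cells where a member had under 50 UMIs over both libraries. High ratios fill the PT and TAL columns, while T and NK cells hold 0 members past 2-fold upwards.

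Across types, the members that most often had high ratios were not Fos and Jun. Myc was at least 2-fold higher in 5 of the 7 types where it passed the minimum and Dusp5 in 5 of 8. Fosl1, which encodes the AP-1 subunit FRA-1, was so in 5 of 5. It had 45 UMIs in control against 495 in ischemia over all cells and so passed mainly through ischemia. Its 5 of 5 was therefore largely set by the minimum and does not rank it against the others. Over all cells, Myc had 457 UMIs in control against 2031 in ischemia, and Dusp5 had 666 against 1493. Both could thus pass partly through ischemia, and their counts do not rank them against members that passed in all 10 types. Fosl2, Maff, Cebpb, Cebpd, Klf4, Klf6, Zfp36l1 and Ier5 were at least 2-fold higher in 4 types each. Of these, Cebpb, Klf6 and Zfp36l1 passed the minimum in all 10 types, as Fos and Jun did. Fosl2, Cebpd and Ier5 passed it in 9, Klf4 in 8 and Maff in 7. They could also pass partly through ischemia, so their counts do not rank them against members that passed in all 10 types. The Ier5 call in pericytes with smooth muscle cells was lost without integration. Fos, Fosb, Jun, Jund, Dusp1 and Nr4a1 were at least 2-fold higher in 0 of 10 types, Mafk in 0 of 9, Nr4a3 in 0 of 4 and Egr3 in 0 of 1.

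Within the FOS family, the highest ratios in PT and TAL were those of Fosl1, on few UMIs. In PT, Fosl1 was found as 4 UMIs in control and 104 in ischemia, a ratio of 27.4 (10.4–102). In TAL it was found as 4 UMIs in control and 61 in ischemia, a ratio of 12.6 (4.67–47.6). Thin limb cells had the highest levels, with 6.18 CPM in control against 37.4 CPM in ischemia, a ratio of 6.05 (3.33–12.1), and CD-PC and EC had ratios of 6.28 (3.32–13.1) and 5.28 (2.38–13.8). Fosl1 thus rested on few UMIs in control in every type. Fosl2, which encodes FRA-2, was at 4.92 CPM in control against 25.5 CPM in ischemia TAL, a ratio of 5.18 (3.84–7.1), and its ratio was 9.7 (4.86–22) in DCT-CNT, 2.75 (2.1–3.65) in macrophages and 2.38 (2.11–2.69) in PT. Fos itself was at 73.6 CPM (71.6–75.6) in control against 147 CPM (144–150.02) in ischemia, a ratio of 2.0 (1.93–2.07) in PT, just short of 2-fold. In TAL its ratio was 1.21 (1.16–1.26), and in DCT-CNT, CD-PC and thin limb cells it was 0.91 (0.869–0.952), 0.939 (0.916–0.963) and 0.887 (0.855–0.92). In these 3 clusters the ischemia value of Fos thus lay slightly below control. Fosb had ratios of 1.27 in PT and 1.34 in TAL.

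The JUN family had lower ratios than Fosl1. Jun was at 136 CPM (133–139) in control against 226 CPM (223–230.04) in ischemia, a ratio of 1.67 (1.63–1.71) in PT. Its ratio was 1.43 (1.37–1.49) in TAL, 0.984 (0.938–1.03) in DCT-CNT and 0.683 (0.638–0.73) in macrophages. Junb was at 36.9 CPM (35.5–38.4) in control against 116 CPM (114–119) in ischemia, a ratio of 3.14 (3.01–3.29) in PT and had ratios of 1.45 (1.38–1.53) in TAL, 1.11 (1.04–1.18) in DCT-CNT and 0.877 (0.851–0.904) in CD-PC. PT was the type where Junb, a subunit that weakens JUN activity in many settings, was past 2-fold. Jund, the most constantly expressed JUN gene, had ratios of 1.88 in PT and 1.17 in TAL, and 0.742 to 1.17 in the other 8 types.

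Of the other bZIP genes, Atf3, Maff, Cebpb and Cebpd were past 2-fold in PT, and Mafk was not past it in any type. Atf3 was at 11.3 CPM (10.5–12.1) in control against 71.3 CPM (69.3–73.3) in ischemia, a ratio of 6.31 (5.86–6.81) in PT. In TAL it was at 191 CPM in control against 365 CPM in ischemia, a ratio of 1.91 (1.81–2.01), and in macrophages it was lower, with 751 CPM in control against 482 CPM in ischemia and a ratio of 0.642 (0.601–0.686). Atf3 thus went in opposite directions in PT and in macrophages, a difference that was not tested. Cebpd, an acute-phase C/EBP factor, was at 3.9 CPM (3.46–4.39) in control against 28.4 CPM (27.1–29.7) in ischemia, a ratio of 7.28 (6.42–8.28) in PT, with ratios of 4.26 (3.7–4.93) in TAL, 4.04 (3.53–4.64) in DCT-CNT and 2.37 (2.17–2.6) in CD-PC. Cebpb, its relative that also acts in myeloid cells, had ratios of 3.66 (3.46–3.87) in PT, 3.5 (2.94–4.2) in TAL and 5.39 (4.31–6.82) in DCT-CNT. In macrophages Cebpb was at 242 CPM (219.7–266) in control against 1057 CPM (1029.6–1085) in ischemia, a ratio of 4.37 (3.96–4.83). In T and NK cells Cebpb went the other way, with 131 CPM in control against 55.5 CPM in ischemia, a ratio of 0.423 (0.247–0.711). Maff, a small MAF protein without a transactivation domain, had ratios of 5.26 (4.19–6.67) in PT, 4.3 (2.74–7.05) in TAL and 6.7 (3.92–12.2) in DCT-CNT, while Mafk had 1.03, 0.924 and 1.38.

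Egr1, a zinc finger factor induced through serum response elements, was at 12.4 CPM (11.6–13.2) in control against 53.8 CPM (52.1–55.6) in ischemia, a ratio of 4.36 (4.05–4.69) in PT and at 129.5 CPM in control against 277 CPM in ischemia TAL, a ratio of 2.14 (2.01–2.28). Its ratio was 1.81 (1.68–1.95) in DCT-CNT, 1.13 (1.09–1.17) in CD-PC and 0.759 (0.679–0.851) in macrophages. Egr2 passed the minimum in 3 types and was past 2-fold in TAL, with 0.676 CPM in control against 5.89 CPM in ischemia, a ratio of 8.72 (4.03–22.4). Egr3 passed it in EC alone, with a ratio of 1.13 (0.82–1.57). The nuclear receptor Nr4a1 had ratios of 0.669 (0.513–0.87) in PT and 0.646 (0.537–0.776) in DCT-CNT, 1.98 in thin limb cells and 1.95 in macrophages. Nr4a2 was past 2-fold in macrophages, with 46 CPM in control against 93.3 CPM in ischemia, a ratio of 2.03 (1.6–2.59), and Nr4a3 had 1.62 there.

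All 4 KLF genes were at least 2-fold higher in TAL, where 7.82% of all genes were, and they differed in the other types. Klf2 was past 2-fold in TAL alone, at 2.23. Klf6, known to be induced early in injured kidney, was at 37.4 CPM (36–38.9) in control against 137 CPM (134–139.8) in ischemia, a ratio of 3.66 (3.5–3.82) in PT, with ratios of 3.39 (3.16–3.64) in TAL, 3.44 (3.13–3.78) in DCT-CNT and 2.04 (1.94–2.16) in CD-PC. Klf4 was past 2-fold in PT (2.85), CD-PC (2.58), TAL (2.39) and macrophages (2.2). In EC, where KLF2 and KLF4 are known to respond to blood flow, Klf4 was at 518 CPM in control against 386 CPM in ischemia, a ratio of 0.746 (0.706–0.788), and Klf2 at 1416 CPM in control against 1217 CPM in ischemia, a ratio of 0.86 (0.832–0.888). Klf10, a factor induced by TGF-beta, had ratios of 2.49 (1.75–3.63) in TAL and 2.13 (1.34–3.47) in DCT-CNT, but 0.474 (0.36–0.621) in thin limb cells and 0.775 (0.68–0.883) in PT.

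Among the phosphatases that act on MAP kinases, Dusp1 and Dusp5 differed. Dusp1, a nuclear phosphatase of p38, JNK and ERK, was at 38.9 CPM (37.4–40.3) in control against 31.5 CPM (30.2–32.9) in ischemia, a ratio of 0.812 (0.767–0.859) in PT, and its ratio was 0.698 (0.616–0.79) in DCT-CNT and 0.591 (0.534–0.654) in thin limb cells. Across the 10 types the ratio of Dusp1 ran from 0.591 to 1.36, and it differed between the PT clusters, as given below. Dusp5, which acts on ERK, had ratios of 4.19 (2.93–6.14) in TAL, 3.84 (1.94–8.44) in thin limb cells, 2.3 (1.35–4.09) in EC, 2.26 (1.91–2.69) in PT and 2.24 (1.62–3.18) in macrophages, but 0.60 (0.354–0.998) in DCT-CNT. Dusp2, a phosphatase known from immune cells, was past 2-fold in EC (3.68, interval 2.4–5.86) and macrophages (2.54, interval 1.95–3.35). Dusp6, a cytoplasmic phosphatase of ERK, was past it in thin limb cells (2.21, interval 1.46–3.42) and was at 0.784 in TAL.

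The decay factor Zfp36l1 was at 81.8 CPM (79.7–83.9) in control against 275 CPM (271–279) in ischemia, a ratio of 3.37 (3.27–3.47) in PT and at 331 CPM in control against 968 CPM in ischemia TAL, a ratio of 2.92 (2.81–3.04). Its ratio was 2.79 (2.65–2.94) in DCT-CNT and 2.21 (1.83–2.66) in podocytes, where it was the 1 member past 2-fold. Zfp36, which encodes the decay factor tristetraprolin, had a ratio of 2.12 (2.01–2.23) in PT but 0.479 (0.303–0.749) in T and NK cells, with 162 CPM in control against 77.7 CPM in ischemia there. Btg1 and Btg2, antiproliferative genes, were past 2-fold in 1 type each, Btg1 in TAL (2.94, interval 2.72–3.18) and Btg2 in PT (2.65, interval 2.49–2.83).

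All 6 members of the last role were past 2-fold in PT, where 6.9% of all genes were at least 2-fold higher. Myc, a growth regulator, was at 2.73 CPM (2.36–3.14) in control against 15.8 CPM (14.9–16.8) in ischemia, a ratio of 5.79 (4.97–6.78) there. In DCT-CNT it was found as 4 UMIs in control and 85 in ischemia, a ratio of 23.5 (8.84–88.1), and in EC at 3.6 CPM in control against 20.1 CPM in ischemia, a ratio of 5.57 (3.39–9.69). Myc was past 2-fold in PT, TAL, DCT-CNT, CD-PC and EC, and in macrophages its ratio was 0.882 (0.595–1.33). Rhob, an early-induced gene of a small GTPase, had ratios of 6.47 (4.99–8.49) in DCT-CNT, 4.06 (3.8–4.35) in PT and 4.0 (3.55–4.53) in TAL. The survival gene Ier3 had a ratio of 3.58 in PT and 2.5 in macrophages, Ier5 had 3.56 in PT and 3.52 in TAL, and Ier2 had 2.29 in PT and 1.5 in TAL. Csrnp1, a nuclear protein with a cysteine- and serine-rich domain, had 3.15 in macrophages, 2.47 in TAL and 2.14 in PT.

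**Figure D2:**
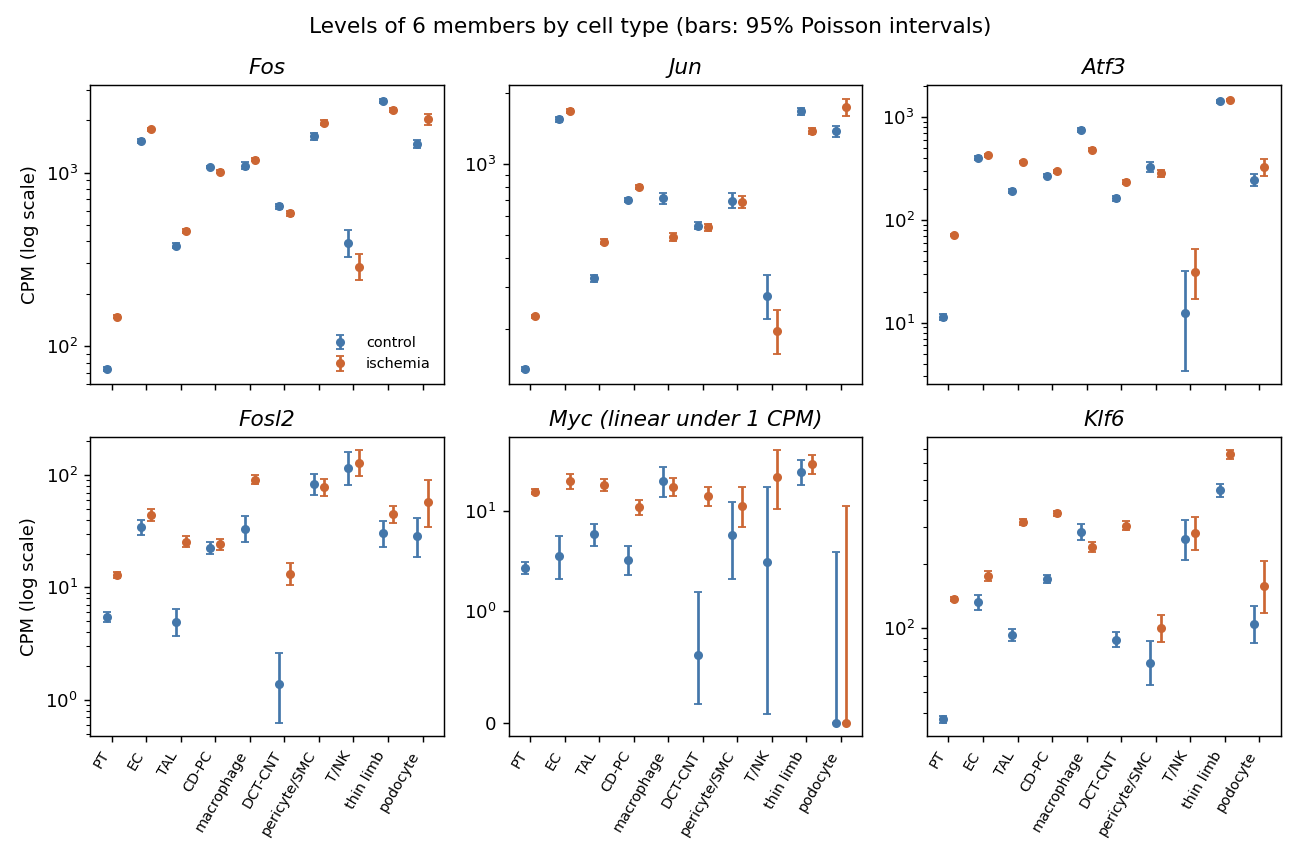
CPM of selected members in each cell type on a log axis, control and ischemia side by side, with bars for the 95% Poisson interval of counting error. The ischemia points of Atf3 lie above control in PT and below it in macrophages, and those of Fos lie close to control outside PT.

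**Figure D3:**
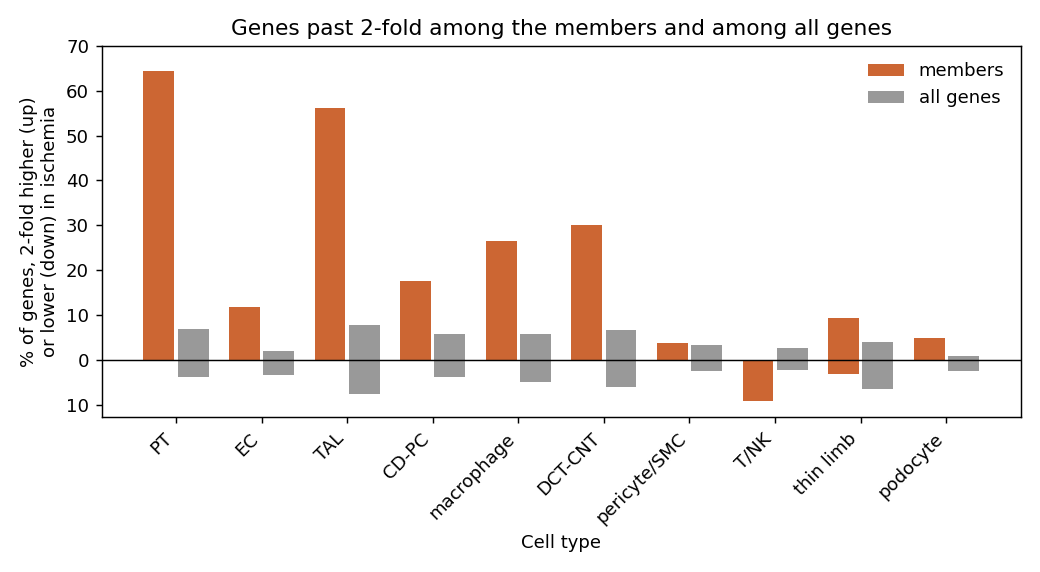
Percent of the members and of all tested genes that were at least 2-fold higher or lower in ischemia, by cell type, with higher drawn upwards and lower downwards. The members' bar for higher reaches 64.5% in PT and 0% in T and NK cells.

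The ratios in the tubule moved with the mitochondrial share of the cells. Within PT cells of at most 25% mitochondrial UMIs, 16 of 31 members were at least 2-fold higher and 0 lower, against 5.29% and 4.83% of all genes. Within such TAL cells 9 of 30 were higher and 0 lower, against 5.47% and 8.39%. A finer split, chosen after these values were seen, separated cells of at most 15%, 15 to 25% and 25 to 55% mitochondrial UMIs. The cells of at most 15% were shallow, with a median of 4077.5 control and 4197 ischemia UMIs in PT and 5523 and 3876 in TAL, against 26306 and 41288 in PT and 15508.5 and 26385 in TAL for the range of 15 to 25%. In these shallow cells the members took a high share of the UMIs that were not mitochondrial, also in control.

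In PT cells of at most 15% mitochondrial UMIs, the members took 0.295% in control and 0.32% in ischemia. In those of 15 to 25% they took 0.0855% in control and 0.235% in ischemia, and in those of 25 to 35%, 0.0689% in control and 0.172% in ischemia. At least 2-fold higher were 6 of 30 members in the first range and 23 of 31 in the middle one. In the range of 25 to 55% it was 18 of 30. Of all genes, 3.47%, 5.80% and 4.93% were 2-fold higher in these 3 ranges. The members 2-fold lower were 3, 0 and 1, against 5.44%, 3.92% and 2.42% of all genes. In TAL cells of at most 15% the members took 1.41% in control and 0.845% in ischemia, and in those of 15 to 25% they took 0.308% in control and 0.734% in ischemia. So the direction of the summed level in TAL differed between these ranges. In the lowest range, 60 control and 75 ischemia TAL cells, 2 of 24 members were at least 2-fold higher and 10 were 2-fold lower, against 5.45% and 8.72% of all genes. At 15 to 25%, 78 and 182 cells, 20 of 30 were higher and 0 lower, against 7.28% and 7.95%. At 25 to 55%, 372 and 242 cells, 16 of 30 were higher and 0 lower, against 6.18% and 8.72%.

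In TAL, the 10 members 2-fold lower in the lowest range were Fos, Fosb, Jun, Junb, Jund, Nr4a1, Dusp1, Zfp36, Btg2 and Ier2, and the 2 that were higher were Cebpd and Myc. There the ratio of Fos was 0.361 (0.329–0.397), 2.84 (2.5–3.23) and 1.1 (1.04–1.17) in the ranges of at most 15%, 15 to 25% and 25 to 55%. Jun had 0.381 (0.345–0.421), 2.09 (1.87–2.35) and 1.59 (1.5–1.69). In contrast, Cebpd had 2.58 (1.83–3.71), 4.41 (3.11–6.48) and 3.66 (3.04–4.43), and so was past 2-fold in each range. Atf3 had 0.549, 3.71 and 1.68. Zfp36l1 had 1.5, 2.7 and 2.73, Klf6 had 1.3, 3.64 and 3.12, and Myc had 3.49, 1.95 and 2.69. In PT, the 3 members 2-fold lower in the lowest range were Dusp1, Klf2 and Klf10. Fos in PT had 0.732 (0.691–0.775), 2.82 (2.66–2.98) and 2.13 (1.97–2.29), Jun had 0.675, 2.13 and 1.83, and Dusp1 had 0.306, 0.958 and 1.23. Atf3 had 2.68 (2.39–3.01), 8.79 (7.68–10.1) and 5.2 (4.43–6.12), Cebpd had 5.04, 7.04 and 5.0, Cebpb 2.37, 3.51 and 3.46, Egr1 2.55, 4.86 and 3.5, and Myc 2.49, 7.29 and 5.86. Atf3, Cebpb, Cebpd, Egr1 and Myc were therefore past 2-fold in PT in all 3 ranges, while Fos and Jun were not.

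**Figure D4:**
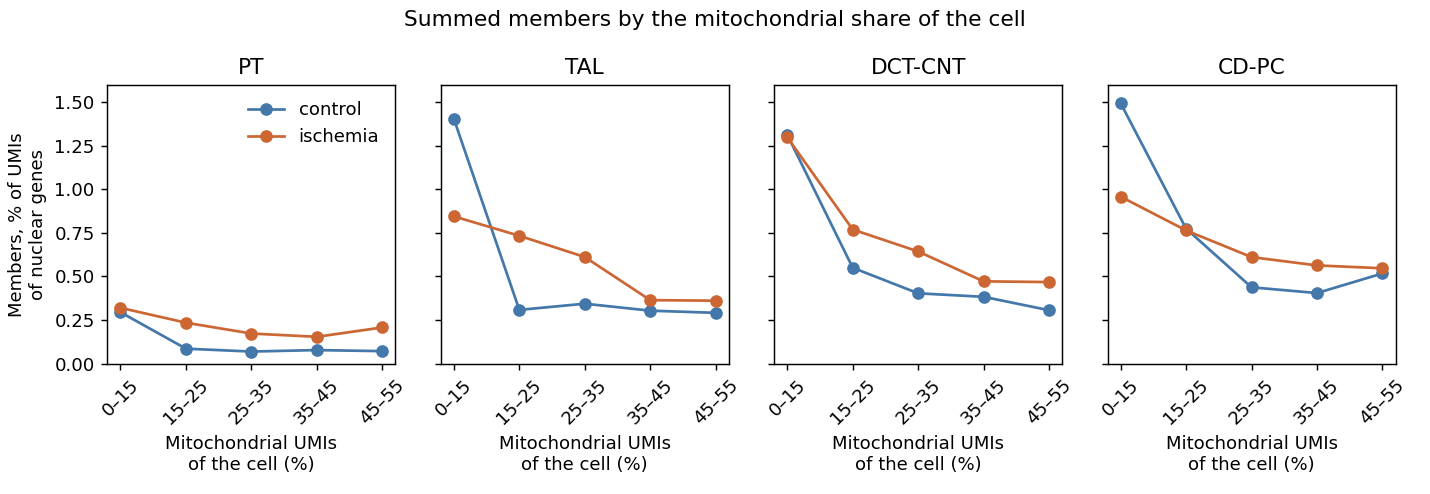
Percent of non-mitochondrial UMIs taken by the 36 members in cells of PT, TAL, DCT-CNT and CD-PC, by range of mitochondrial share, for control and ischemia. In TAL the control value at most 15% is 1.41% against 0.845% in ischemia, and at 15 to 25% it is 0.308% against 0.734%.

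**Figure D5:**
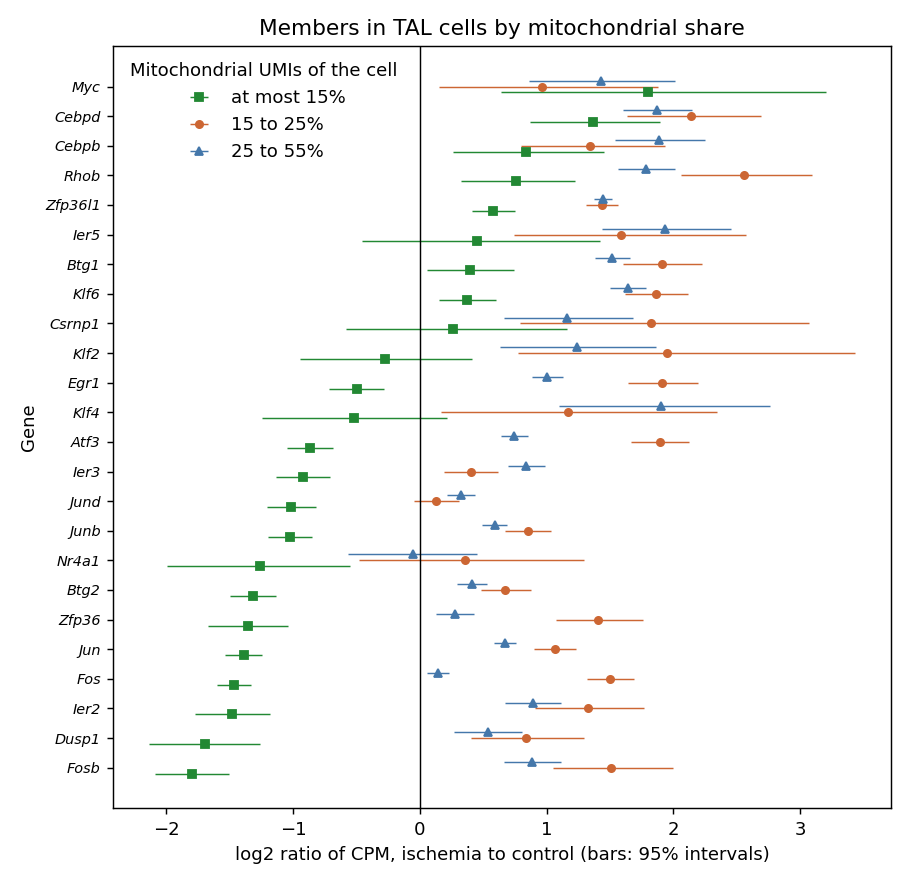
Log2 ratio of ischemia to control CPM, with bars for the 95% interval of counting error, of the 24 members with at least 50 UMIs in TAL cells of at most 15% mitochondrial UMIs, beside the ratio in cells of 15 to 25% and of 25 to 55%. As a ratio, Fos is at 0.361 in the lowest range and 2.84 in the middle one, and Cebpd at 2.58 and 4.41.

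The CD-PC and DCT-CNT clusters also differed between these ranges. In CD-PC cells of at most 15% mitochondrial UMIs 2 of 32 members were at least 2-fold higher and 4 lower, against 4.67% and 6.55% of all genes. The members took 1.5% in control and 0.959% in ischemia. In this range the CD-PC cells differed in depth, with a median of 9302 UMIs in control and 22703 in ischemia. At 15 to 25% they took 0.775% in control and 0.765% in ischemia, and at 25 to 55% 7 of 26 members were higher and 0 lower, against 2.38% and 2.66%. Klf4 had a ratio of 4.96 (2.6–10.1) and Rhob 4.35 (3.26–5.86) in this last range. In DCT-CNT cells of at most 15%, 107 control and 59 ischemia, 5 of 20 members were higher and 3 lower, against 5.13% and 15.6% of all genes. At 15 to 25% it was 8 of 26 and 0, against 7.86% and 6.98%. At 25 to 55% it was 9 of 25 and 0, against 6.12% and 5.36%. Rhob had ratios of 4.94, 6.16 and 8.28 in DCT-CNT, Cebpd 5.24, 1.99 and 5.29, and Klf6 2.19, 3.93 and 3.61. These 3 members were near or past 2-fold in each range. The part of mitochondrial content and depth in the ratios was not tested.

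Heat shock genes, which digestion of tissue at 37 °C can induce, stood beside the members as a list without any of them. Their summed level was 3487 CPM in control and 4622 CPM in ischemia PT, 2781 and 2979 CPM in TAL, 3465 and 2971 CPM in DCT-CNT and 4602 and 5944 CPM in EC. Of its 13 genes, 3 were at least 2-fold higher in PT and 1 in TAL, against 6.9% and 7.82% of all genes. In PT these were Hspb1, which encodes a small heat shock protein of the cytoskeleton, at 25, and the inducible HSP70 genes Hspa1a and Hspa1b at 2.4 and 2.09. Hspa1a was at 0.385 in macrophages and 0.342 in thin limb cells. Both libraries were digested in the same way, and the part of digestion in the members' levels was not tested.

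Markers of other cell types were also summed within these types. In PT cells the summed EC markers went from 9.92 to 12.5 CPM, those of podocytes from 7.91 to 8.61 CPM and those of PMN from 54.6 to 40.5 CPM. The thin limb list, of which Aqp1 is also a PT gene, went from 163 to 315 CPM. In TAL cells EC markers went from 13.6 to 31.8 CPM, PMN markers from 4.34 to 21.5 CPM and macrophage markers from 164 to 81.4 CPM. All 10 EC, 7 podocyte and 7 PMN markers had a UMI in PT cells of both libraries. The injured PT list, which holds Havcr1, went from 894 to 5730 CPM in EC and from 758 to 4614 CPM in macrophages. The part of RNA from other cell types in the members' ratios was not tested. In thin limb cells PMN markers went from 6.7 to 132 CPM, those of pericytes with smooth muscle cells from 61.8 to 564 CPM, EC markers from 13.4 to 87.6 CPM and macrophage markers from 281 to 51.2 CPM. In CD-PC, PMN markers went from 8.9 to 91.7 CPM. Their part in the thin limb and CD-PC ratios was not tested. PMN markers went in macrophages from 32.7 to 257 CPM and the dendritic list from 6129.6 to 2083 CPM. The macrophage list itself went from 17156 to 16725.5 CPM there, and in EC PMN markers went from 22.8 to 109 CPM. Whether the cells under the macrophage name had the same makeup in both libraries was not tested. Nor was the part of such a difference in the macrophage ratios of Cebpb, Atf3 and Jun.

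Shares of cells with a UMI were compared among cells with at least 1000 UMIs, after each was thinned to 1000 UMIs. Fos was detected in 6.82% (6.03–7.67) of control and 11.1% (10.0–12.4) of ischemia PT cells. Without thinning, and over all PT cells, the shares were 32.6% and 45.7%. PT was the type with the lowest thinned share in both libraries, and no kidney cell type is known to lack Fos. Atf3 was detected in 1.17% (0.849–1.56) of control and 5.54% (4.71–6.46) of ischemia PT cells, against 1.67% of ischemia T and NK cells, the lowest share in that library. Klf6 was detected in 4.06% (3.45–4.74) of control and 12.3% (11.1–13.6) of ischemia PT cells. In TAL the Klf6 shares were 9.49% (7.08–12.4) of control and 21.7% (18.1–25.6) of ischemia cells and in DCT-CNT 8.38% (5.73–11.7) of control and 24.7% (19.8–30.2) of ischemia cells. At matched depth, Klf6 was thus found in a larger share of ischemia cells in all 3 segments. Cebpb was detected in 15.5% (11.5–20.3) of control and 47.5% (43.3–51.7) of ischemia macrophages, and Egr1 in 9.29% (6.9–12.2) of control and 20.9% (17.4–24.7) of ischemia TAL cells.

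PT fell into clusters 1, 2 and 5. The ratio of Atf3 was 3.26 (2.5–4.3), 8.44 (7.55–9.46) and 4.44 (3.97–4.97) in them, that of Cebpd 6.09 (4.75–7.89), 5.62 (4.56–6.99) and 9.9 (8.03–12.3), and that of Fos 2.13 (1.91–2.39), 2.25 (2.15–2.36) and 1.49 (1.41–1.58). All 3 members were thus higher in ischemia in each cluster. Dusp1 and Klf10, which were below control in PT as a whole, differed between the clusters. In the same order, the ratio of Dusp1 was 1.18 (0.979–1.42), 0.96 (0.892–1.03) and 0.465 (0.416–0.518). That of Klf10 was 1.46 (0.942–2.27), 0.895 (0.748–1.07) and 0.492 (0.392–0.614). Among ischemia PT cells, the 914 without a UMI of Havcr1 and the 1159 with at least 3 differed in depth, with medians of 7950.5 and 37320 UMIs. Fos was at 143 CPM (137–149) and 149 CPM (145–153) in them, and Jun at 226 CPM (218–234) and 224 CPM (219–229). Atf3 was at 42.6 CPM (39.2–46.2) and 90.5 CPM (87.6–93.5) and Cebpd at 10.8 CPM (9.14–12.7) and 39.1 CPM (37.2–41). Dusp1 was at 45.8 CPM (42.3–49.6) and 23.8 CPM (22.3–25.3). Fos and Jun were therefore at like levels in both sets of cells, with overlapping intervals, where Atf3 and Cebpd were higher and Dusp1 lower in cells with Havcr1. The part of depth in these differences was not tested.

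Genes around the members in the same pathways were summarised as lists. Of all genes tested, 6.9% were at least 2-fold higher and 3.85% lower in PT, and 7.82% and 7.64% in TAL. Of 19 other bZIP partners of AP-1 that passed the minimum in PT, 1 was at least 2-fold higher and 0 lower, with a median log2 ratio of 0.19, and in TAL it was 1 higher and 2 lower of 20. The gene past 2-fold in PT was Atf5, a stress-responsive relative of ATF4, at 3.31 (2.8–3.92). Of the genes of serum response factor and its MAP kinase partners, 1 of 19 was past 2-fold upwards in PT and 2 of 19 in TAL. The median log2 ratio of these upstream kinases and factors was 0.21 in PT and 0.16 in TAL, beside 0.11 and 0.10 for all genes.

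In PT, TAL, CD-PC and DCT-CNT, 6.9%, 7.82%, 5.75% and 6.74% of all genes tested were 2-fold higher. In the same order, 3.85%, 7.64%, 3.89% and 6.15% were 2-fold lower. Other feedback genes of MAP kinase signalling were 2-fold higher in 3 of 14 cases in PT and 6 of 15 in TAL. In CD-PC it was 5 of 15 and in DCT-CNT 4 of 14, and 0 were 2-fold lower in these types. Examples were Dusp8 in PT (8.98, interval 7.2–11.3) and, in TAL, Dusp10 (5.29, interval 2.86–10.7) and Nfkbia (5.94, interval 5.1–6.94), the inhibitor of NF-kB. Other primary response genes came closest to the members. Of these, 15 of 29 were at least 2-fold higher in PT with a median log2 ratio of 1.03, 11 of 28 in TAL with 0.93, and 14 of 26 in DCT-CNT with 1.17. In DCT-CNT this was a larger share than the members' 9 of 30. Among them were Socs3 in PT (10, interval 8.75–11.5), the inhibitor of cytokine signalling, the RNA-binding factor gene Arid5a in PT (11.7, interval 8.23–17.2), the secreted matrix protein gene Ccn2 in TAL (8.6, interval 7.14–10.4) and the EGF receptor ligand gene Hbegf in DCT-CNT (8.89, interval 7.28–10.9). Thin limb cells had genes past 2-fold in both directions, with 4 of 28 higher and 8 lower, against 3.9% and 6.48% of all genes. The median log2 ratio of this list was -0.0677 there. Among the lower were Gadd45b (0.0958, interval 0.0762–0.119), a growth arrest gene, and Id3 (0.156, interval 0.136–0.177), an inhibitor of basic helix-loop-helix factors. The higher were Sgk1 (7.65, interval 5.75–10.4), Phlda1 (3.17), Ccn2 (2.69) and Trib1 (2.38). The members' median there was -0.0038, and their summed control level was the highest of the 10 types. Unnamed cluster 15 stood higher still, at 21698 CPM, with Fos at 4048 CPM in its control cells.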

How the data were processed

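Single-cell RNA was sequenced from 1 control and 1 ischemic kidney by the 10x Genomics 3′ v2 protocol. The authors deposited raw UMI counts per gene and barcode, which per the submitters' processing notes were made with Cell Ranger 7.0.0 on mm10 and which were not normalized. Total counts of kept cells were 124679362 in control and 128733541 in ischemia. Of the columns of per-sample values, 0 went unused.

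The filters required 200 genes or more, between 500 and 150000 UMIs, and no more than 55% of UMIs from mitochondrial genes. Seurat 5.3.0 (R 4.3.3) normalised the cells to 10000 UMIs, joined the libraries by anchors and clustered them at resolution 0.3 on 30 principal components (seed 42), from 2000 variable genes of which 54 members and listed genes were dropped (1946 used). For each marker list, the CPM of a cluster (plus 10 CPM) were divided by the median cluster, and the list whose log2 ratios had the highest mean gave the name. The name was dropped unless 3 or more of its markers reached 10 UMIs, and unless the 10 genes that most marked the cluster (50 UMIs or more) held 1 or more markers of this list and fewer of each other list. The other 3 of 18 clusters stayed unnamed, and 3 named types under 50 cells in a library (PMN, collecting duct intercalated and B cells) were not compared.

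CPM were computed from UMIs summed over the cells of a type. Levels have exact Poisson intervals, ratios exact conditional intervals and shares exact Clopper-Pearson intervals, all at 95%, and cells were not treated as replicates. A gene entered with at least 50 UMIs over both libraries, and at least 2-fold means a ratio of at least 2 or at most 0.5. Cells with at least 1000 UMIs were thinned to 1000 UMIs for shares, and shallower cells were left out of the thinned shares. Other steps used Python 3.11.15, numpy 2.4.6, scipy 1.17.1, pandas 2.3.3, matplotlib 3.10.9 and scanpy 1.11.5. The scripts were tested on simulated data.

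The members, lists and tests were chosen with earlier results of these data known. Values are given, per type, for Fos, Jun, Junb, Egr1 and Atf3 and for up to 6 members with the highest and 6 with the lowest ratio, and for up to 4 genes of each list with the highest or lowest ratio. Any other gene or value was chosen after it was seen. Alternatives covered the mitochondrial limit, minimum depth, integration, resolution, members kept among the variable genes, doublets, the weight of cells, scaling, the UMI minimum and shared barcodes, of which the doublet scores and shared barcodes were chosen after the data were seen. Doublets were not removed.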

Additional observations from a re-analysis of the deposited data

Results flagged for a closer look

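Of the members past 2-fold, 3 went in opposite directions in different cell types, and these differences were not tested. Cebpb had a ratio of 5.39 (4.31–6.82) in DCT-CNT and 0.423 (0.247–0.711) in T and NK cells. Klf10 had 2.49 (1.75–3.63) in TAL and 0.474 (0.360–0.621) in thin limb cells. With members kept among the variable genes, 0 members were 2-fold lower in thin limb cells, so the Klf10 call there was lost. Zfp36 had 2.12 (2.01–2.23) in PT and 0.479 (0.303–0.749) in T and NK cells.

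Cells outside the comparisons also carried the members, and each ratio here is of their summed CPM in ischemia to that in control. It was 1.80 (1.75–1.85) in unnamed cluster 0, which held 4567 control and 5859 ischemia cells with a median of 836 UMIs, 2.02 (1.96–2.08) in unnamed cluster 4 and 1.18 (1.16–1.21) in unnamed cluster 15. In PMN, with 19 control and 190 ischemia cells, it was 1.56 (1.46–1.66), and in collecting duct intercalated cells, with 58 and 45 cells, 1.04 (1.01–1.08). The barcodes removed for over 55% mitochondrial UMIs, 2524 in control and 2137 in ischemia, had a ratio of 1.58 (1.53–1.62).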

How the results depend on the processing

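Under the alternatives, 185 of 200 recomputed counts of members past 2-fold stayed within 1.5 times the reported count. These include the counts of members 2-fold lower, which were 0 in most types and so had little room to move. The 185 thus says little about how stable the counts of higher members were. For single members, 1222 ratios moved by less than their counting interval, 190 moved by more and 1 turned direction, and the cause of these moves was not tested. Ratios moved most often with CPM computed per cell and averaged (59) and with a mitochondrial limit of 25% (49), and 0 moved at a minimum of 1000 UMIs per cell or without barcodes that both libraries hold. At a mitochondrial limit of 25%, 9 of 30 members were at least 2-fold higher in TAL, against 5.47% of all genes. In CD-PC it was 2 of 34, against 4.99%, and in pericytes with smooth muscle cells 0. In DCT-CNT 5 of 28 were 2-fold lower, against 9.44% of all genes in these cells. The all-gene median log2 ratio then went from 0.10 to -0.07 in TAL and from 0.07 to -0.07 in DCT-CNT. In pericytes with smooth muscle cells 0 were higher without integration and with mitochondrial UMIs left out of the total, and 2 at a minimum of 20 UMIs per gene. With members kept among the variable genes, thin limb cells had 5 higher and 0 lower. With CPM averaged over cells, podocytes had 2 higher and 1 lower, DCT-CNT 1 lower and T and NK cells 1 lower. At a minimum of 20 UMIs per gene, podocytes had 2 higher and macrophages 1 lower. For the counts here without a share of all genes, that share under the same setting is not given. Whether such small counts differ from it cannot be told. The 1 ratio that turned direction was that of Ier5 in pericytes with smooth muscle cells (Ier5 ratio, pericyte/SMC), at 2.06 as reported and 0.764 without integration. Leaving out the doublets called by Scrublet was not run, since it called 0 doublets, and the 8% of cells with the highest scores were left out in its place. No paired analysis was possible because each condition had 1 library, and for the same reason no replicate was left out. Few UMIs limited Fosl1, Egr2, Egr3, Nr4a3 and Dusp2 in most types.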
